A study of Homo sapiens with 4 samples.

Results

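The genes described here are 10 secreted members of the TGF-beta family and its follistatin antagonists: the ligands TGFB1, TGFB2, TGFB3, INHBA, INHBB, BMP2, BMP4 and GDF15, and the binding proteins FST and FSTL3. They were chosen by name, with earlier results of these data known. The probe sets are those that the array annotation gives exactly 1 of these symbols. They number 23 among the 41097 with 1 symbol, or 10 of 19775 genes. RNA came from SCP2, a bone-seeking subline of the human breast cancer line MDA-MB-231, and each of 4 groups was measured on 1 array. The groups were cells overexpressing DLC1, a GTPase-activating protein known as a tumour suppressor, with TGF-beta and without it, and cells with the control vector, with TGF-beta and without it. All groups share the SCP2 background, and the sources used here give no dose, time, promoter or clone. With 1 array a group there is no spread between replicates and no p-value. Precision is limited by how few arrays there are.

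Ligands of this family are secreted as dimers and bind pairs of serine/threonine kinase receptors that phosphorylate SMAD transcription factors. TGF-beta and activins act mainly through SMAD2 and SMAD3, and bone morphogenetic proteins, the BMPs, through SMAD1 and SMAD5. Follistatin and its relative FSTL3 bind activins and keep them from their receptors. Bone matrix stores latent TGF-beta, which is released when bone is resorbed, and tumour cells in bone meet it there.

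In outline, INHBA, BMP2 and FSTL3 were higher with TGF-beta in vector cells, and INHBB, BMP4 and GDF15 were lower. GDF15 and INHBB were 9.30-fold and 3.78-fold higher in the DLC1-labelled array than in the vector array without TGF-beta, and 9.05-fold and 3.96-fold higher with it. TGFB3 differed little on any array.

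Promoters are shown for GDF15 and INHBB, which were higher in the DLC1-labelled arrays and lower with TGF-beta. They are also shown for INHBA and FSTL3, which were higher with TGF-beta. TGFB1, by less than 2-fold, and BMP2 were higher with TGF-beta too but are not printed. Each is the 250 bases before the annotated start of the gene, 5′ to 3′, from RefSeq in build GRCh38.p14. Of the 10 genes, 9 had an entry in the promoter table used, all but BMP2. GDF15 lies at chr19:18385908-18386157 on the plus strand, INHBB at chr2:120345886-120346135 on the plus strand, INHBA at chr7:41703091-41703340 on the minus strand and FSTL3 at chr19:676142-676391 on the plus strand. Capitals mark CAGAC, the core of SMAD-binding elements, and TATAAA, the TATA box, on either strand.

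GDF15: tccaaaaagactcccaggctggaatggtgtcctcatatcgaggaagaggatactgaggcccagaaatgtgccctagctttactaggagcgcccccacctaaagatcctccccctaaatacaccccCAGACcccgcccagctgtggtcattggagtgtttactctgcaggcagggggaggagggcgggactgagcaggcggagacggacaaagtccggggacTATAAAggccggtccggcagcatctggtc

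INHBB: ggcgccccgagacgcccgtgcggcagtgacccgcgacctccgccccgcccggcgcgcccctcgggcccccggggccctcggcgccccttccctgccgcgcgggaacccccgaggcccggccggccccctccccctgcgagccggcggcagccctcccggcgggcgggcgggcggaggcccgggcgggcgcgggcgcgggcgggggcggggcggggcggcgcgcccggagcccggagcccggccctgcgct

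INHBA: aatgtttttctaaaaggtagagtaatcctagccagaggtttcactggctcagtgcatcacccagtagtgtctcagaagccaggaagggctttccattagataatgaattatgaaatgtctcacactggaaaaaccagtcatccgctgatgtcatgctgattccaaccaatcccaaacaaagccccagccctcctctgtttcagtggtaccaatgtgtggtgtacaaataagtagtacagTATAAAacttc

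FSTL3: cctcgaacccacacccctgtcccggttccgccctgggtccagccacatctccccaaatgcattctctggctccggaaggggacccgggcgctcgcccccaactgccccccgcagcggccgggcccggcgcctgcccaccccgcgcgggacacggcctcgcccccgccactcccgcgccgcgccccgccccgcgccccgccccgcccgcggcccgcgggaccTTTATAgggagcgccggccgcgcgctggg

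The GDF15 window held CAGAC from base -125 and TATAAA from base -29, counted back from the start site. The FSTL3 window held the TATA letters on the other strand from base -29, and the INHBA window held them from base -11. CAGAC is in 38.0% of the 35116 promoter windows of this length and TATAAA in 10.7%, so such matches are frequent. The INHBB window held neither and is 89.6% G and C, against a median of 58% over all windows. TGANTCA, the AP-1 site, TGATGNAA, a site of ATF4 with C/EBP proteins, and TGACGTCA, the cyclic AMP response element, were searched on both strands too. No motif letters overlapped another motif's. Those 3 motifs are in 6.57%, 3.14% and 1.65% of all windows, and the 4 windows printed hold none of them. Of the other 5 genes, TGFB3 has 2 windows and BMP4 has 3. AP-1 letters are in the window of FST. CAGAC is in that of TGFB2, in window 1 of TGFB3 and in windows 1 and 3 of BMP4. TATAAA is in that of TGFB2 and in window 2 of TGFB3. A gene with more windows has more chances of a match, so a match per gene cannot be set beside the shares per window.

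The arrays were alike in brightness, with medians of 0.38 to 0.39 in arbitrary intensity units. A gene was represented by its brightest probe set and kept if its highest value reached 0.38, the median of all values. All 10 members were kept, of 13136 genes in all, and TGFB3 passed least clearly, at 0.43. The label of the overexpressing cells was checked on DLC1 first. Its brightest probe set read 3.64 and 3.38 in the DLC1-labelled arrays with and without TGF-beta, and 2.51 and 1.77 in the matching vector arrays, which is higher by 0.54 and 0.93 on the log2 scale and under 2-fold. The next in brightness ran the other way, with 1.69 and 1.44 against 2.41 and 1.79. So did the third set, which just reaches the filter, with 0.19 and 0.18 against 0.41 and 0.26, or -1.11 and -0.53. The third set reaches the filter only through the vector array with TGF-beta, where it is highest, so it is not counted against the label. The 2 brightest sets thus disagree on the label. The arrays are called DLC1-labelled throughout, with every direction taken from that label. All 6 markers of this line, among them VIM and AXL, lay above the 87th percentile of every array. Of 5 genes listed as low in this lineage, CDH1 and PGR lay under the 46th percentile, but 3 lay at or above the median: EPCAM at 5.76 to 7.45, ERBB2 at 1.82 to 2.29 and ESR1 at 0.39 to 0.46. Leukocyte markers summed to 1.15 to 1.44, stromal markers to 1.64 to 1.89 and endothelial markers to 1.19 to 1.42, against 406.2 to 489.4 for the line's own. The lists differ in length and probe sets share no common scale, so these sums are no measure of purity. PTPRC, CDH5 and LUM, from those 3 lists, read at most 0.29. Other members lay above the median, with PECAM1 at 0.67 to 0.85, ITGAM at 0.48 to 0.57, PDGFRB at 0.48 to 0.69 and THY1 at up to 0.47. LYZ, of the leukocyte list, was lower in the DLC1-labelled arrays by over 2-fold, at 0.17 and 0.20 against 0.40 and 0.45. It reaches the filter only in the vector arrays, so the filter favoured this direction, and its part in the results was not tested.

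**Figure D1:**
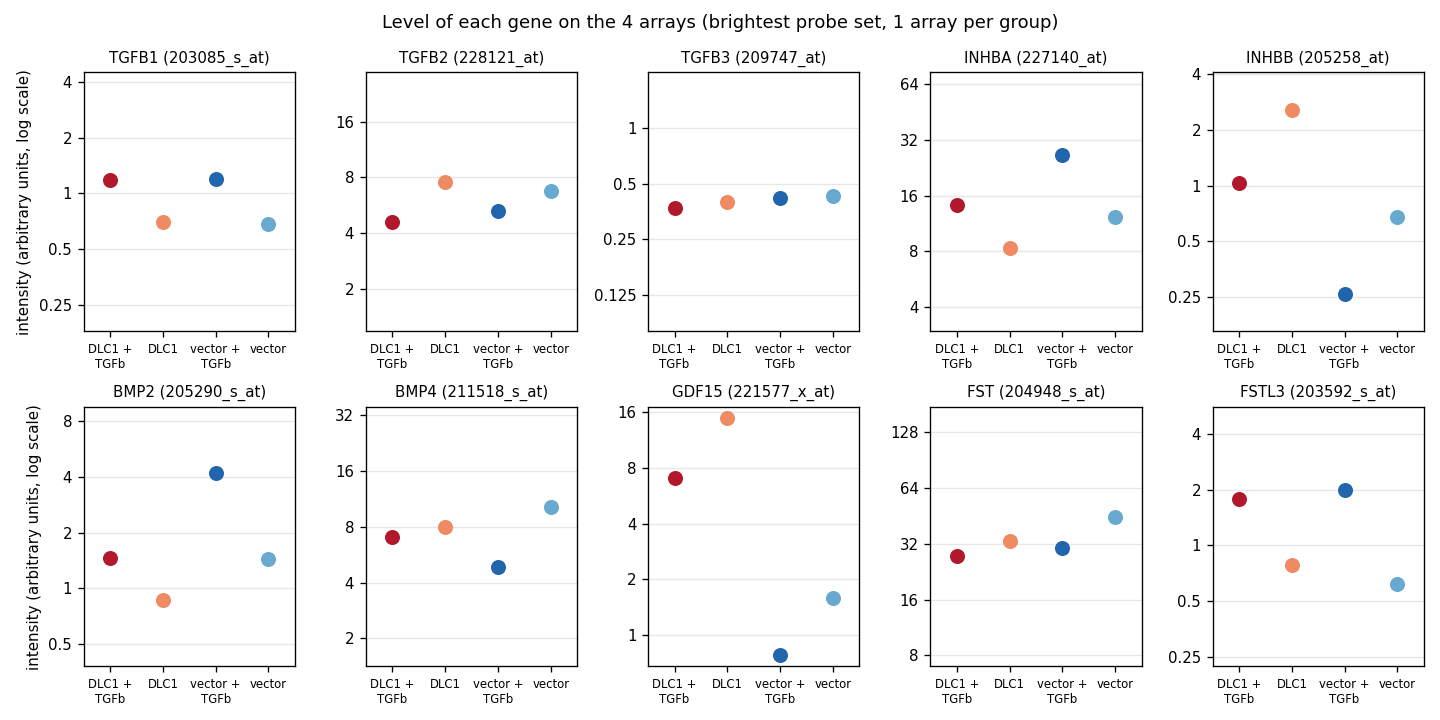
Intensity of the brightest probe set of each gene on the 4 arrays, in arbitrary units on a log scale that spans the same fold range in every panel. Each point is 1 array. GDF15 and INHBB stand highest in the DLC1-labelled arrays, at 14.78 and 2.57 without TGF-beta, and INHBA, BMP2 and FSTL3 stand highest in the vector array with TGF-beta.

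Among the TGF-beta genes themselves, TGFB1, the isoform most widely expressed in the body, read 1.18 with TGF-beta and 0.70 without it in the DLC1-labelled arrays, and 1.19 and 0.68 in the vector arrays. The levels with TGF-beta lay above those without it in both kinds of cells, by 1.69-fold and 1.75-fold, which is under the 2-fold used here for a change. DLC1-labelled and vector arrays differed by no more than 0.04 on the log2 scale. The other TGFB1 probe set read 0.40 to 0.43 on every array and shows none of this, so the TGF-beta difference rests on the brighter set alone.

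TGFB2, an isoform with roles in development, read 4.61 with TGF-beta and 7.56 without it in the DLC1-labelled arrays, and 5.25 and 6.78 in the vector arrays. Both arrays with TGF-beta were therefore lower than both arrays without it. The differences with TGF-beta were -0.71 in the DLC1-labelled arrays and -0.37 in the vector arrays, neither past 2-fold. All 3 TGFB2 probe sets that reach the filter gave much the same, from -0.75 to -0.70 and from -0.38 to -0.30. The remaining 2 sets read at most 0.17. TGFB3 read 0.37 and 0.40 in the DLC1-labelled arrays with and without TGF-beta, and 0.42 and 0.43 in the vector arrays, at about the middle of each array. Its range over the 4 arrays, 0.22 on the log2 scale, was the smallest of the 10 genes. Its other set read 0.09 to 0.12.

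The activin subunit genes went opposite ways. INHBA, which encodes the subunit of activin A, read 14.28 with TGF-beta and 8.29 without it in the DLC1-labelled arrays, and 26.35 and 12.27 in the vector arrays. Both arrays with TGF-beta were above both arrays without it, and the vector array was above the DLC1-labelled array in either state. With TGF-beta INHBA differed by 0.78 on the log2 scale in the DLC1-labelled arrays and rose by 1.10 in the vector arrays. Its 3 probe sets gave 0.78 to 0.79 in the DLC1-labelled arrays and 1.10 to 1.58 in the vector arrays. Between the DLC1-labelled arrays and vector, INHBA differed by -0.88 with TGF-beta and -0.57 without it. Only its second brightest set passed 2-fold there, at -1.18 with TGF-beta, where it read 8.22 in the DLC1-labelled array and 18.64 in the vector array.

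INHBB, which encodes the subunit of activin B, read 1.03 with TGF-beta and 2.57 without it in the DLC1-labelled arrays, and 0.26 and 0.68 in the vector arrays. Both DLC1-labelled arrays were above both vector arrays, and in each kind of cell the array with TGF-beta was the lower. INHBB fell by 1.32 on the log2 scale with TGF-beta in the DLC1-labelled arrays and by 1.39 in the vector arrays. It rose by 1.99 in the DLC1-labelled array with TGF-beta and by 1.92 without it. The 2 effects left the level with both, 1.03, above that with neither, 0.68. The gene has 1 probe set here, and its lowest value, 0.26, lies under the filter, at the 42nd percentile of its array. Rounding of the file to 2 decimals alone leaves the TGF-beta difference in vector arrays between -1.43 and -1.35.

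Of the BMP genes, BMP2, a strong inducer of bone formation, read 1.46 with TGF-beta and 0.86 without it in the DLC1-labelled arrays, and 4.19 and 1.44 in the vector arrays. The vector array with TGF-beta thus stood alone at the top, and the DLC1-labelled array with TGF-beta was level with the untreated vector array. With TGF-beta BMP2 was 1.70-fold higher, under the threshold, in the DLC1-labelled arrays and rose 2.91-fold in the vector arrays. With TGF-beta it fell by 1.52 in the DLC1-labelled array against vector, and without TGF-beta the difference was -0.74. The second probe set gave 0.59 and 1.19 for TGF-beta in the DLC1-labelled arrays and the vector arrays, and -1.54 and -0.94 for DLC1-labelled against vector arrays with and without TGF-beta.

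BMP4, a close relative of BMP2, ran the other way. It read 7.03 with TGF-beta and 7.98 without it in the DLC1-labelled arrays, and 4.86 and 10.29 in the vector arrays, so the DLC1-labelled arrays lay between the vector arrays. With TGF-beta BMP4 differed by -0.18 in the DLC1-labelled arrays and fell by 1.08 in the vector arrays. Against vector, the DLC1-labelled array was 0.53 higher with TGF-beta and differed by -0.37 without it. The gene has 1 probe set here, so no second measure of it exists on these arrays.

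GDF15, a divergent member of the family that is induced by cell stress and acts on the brain through the receptor GFRAL, had the widest range of the 10 genes. It read 7.06 with TGF-beta and 14.78 without it in the DLC1-labelled arrays, and 0.78 and 1.59 in the vector arrays. Both DLC1-labelled arrays were far above both vector arrays, and TGF-beta arrays were the lower in each kind of cell. GDF15 was second from the highest of 13136 genes in the DLC1 comparison in either state, at 3.18 with TGF-beta and 3.22 without it. It fell by 1.07 with TGF-beta in the DLC1-labelled arrays and by 1.03 in the vector arrays, just past the threshold. All of this rests on its brightest probe set, of the kind whose ID ends in x_at and whose probes can also match other transcripts. Its 2 other sets lie under the filter. The first of them read 0.27 to 0.30 on every array. The second read 0.17 and 0.22 in the DLC1-labelled arrays with and without TGF-beta, and 0.14 and 0.11 in the vector arrays.

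The follistatins also parted. FST, the gene of follistatin, was bright, at 27.46 with TGF-beta and 33.16 without it in the DLC1-labelled arrays, and 30.47 and 44.60 in the vector arrays. The untreated vector array was the highest, and no difference passed 2-fold: with TGF-beta the values were -0.27 in the DLC1-labelled arrays and -0.55 in the vector arrays. The 3 probe sets gave -0.27 to -0.05 and -0.65 to -0.55. FSTL3, which neutralises activins as follistatin does, read 1.77 with TGF-beta and 0.78 without it in the DLC1-labelled arrays, and 2.0 and 0.62 in the vector arrays. Both arrays with TGF-beta were above both arrays without it. FSTL3 rose by 1.18 in the DLC1-labelled arrays and by 1.69 in the vector arrays, and it was the only member past 2-fold upward in both. On their brightest sets TGFB1, INHBA and BMP2 were also higher with TGF-beta in both kinds of cells, by less than 2-fold in the DLC1-labelled arrays. For FSTL3, DLC1-labelled and vector arrays differed by -0.18 with TGF-beta and 0.33 without it. FSTL3 has 1 probe set here.

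**Figure D2:**
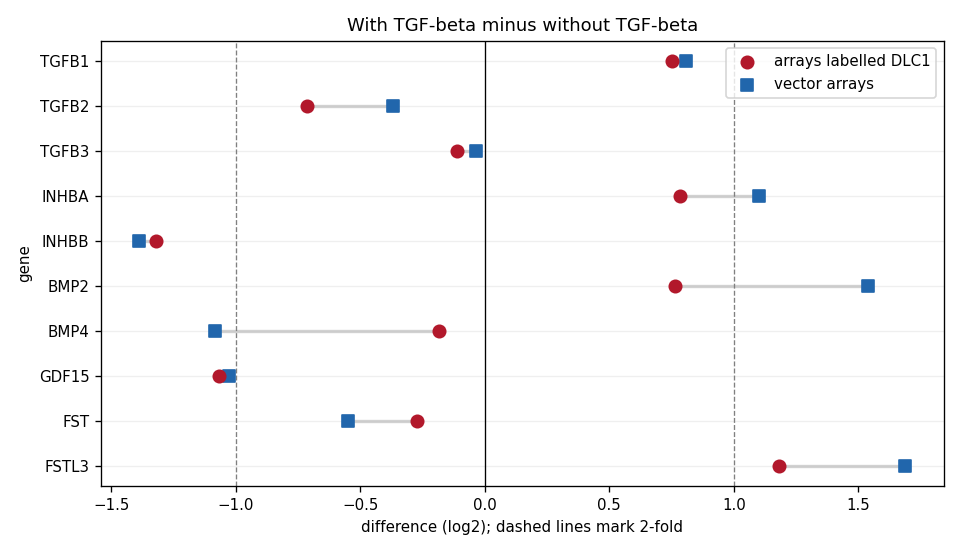
Difference with TGF-beta minus without it, on the log2 scale, for each gene: circles are the DLC1-labelled arrays and squares the vector arrays, each the difference of 2 arrays, and dashed lines mark 2-fold. FSTL3 lies past 2-fold upward in both, INHBB and GDF15 downward in both, and BMP2 and BMP4 have the longest gaps between circle and square.

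Counted together at 2-fold or more, 1 of 10 members, FSTL3, rose with TGF-beta in the DLC1-labelled arrays, and 2 fell, INHBB and GDF15. Of all 13136 genes kept, 0.792% rose and 0.107% fell there. In the vector arrays 3 members rose, INHBA, BMP2 and FSTL3, and 3 fell, INHBB, BMP4 and GDF15, where 1.21% of all genes rose and 0.693% fell. FSTL3 rose in both kinds of cells, as did 0.624% of genes, and INHBB and GDF15 fell in both, as did 0.0609%. The members' median differences were -0.15 and -0.20 in the DLC1-labelled arrays and vector arrays, beside -0.01 and -0.03 over all genes. Their median size, without sign, was 0.76 and 1.05, beside 0.11 and 0.14 over all genes. The members were chosen with earlier results of these data known, so these shares and sizes describe them and are no test of the family. INHBB ranked 4 from the lowest of all genes in the DLC1-labelled arrays and 29 in the vector arrays. Centring each array on the median level of 10 housekeeping genes moved the median of all genes to -0.16 in the DLC1-labelled arrays and -0.22 in the vector arrays. The median of those genes' own differences was -0.02 and 0.04, so this centring shifted the arrays by more than the list's typical difference. The split of all genes then went to 69 higher and 34 lower, beside 104 and 14, in the DLC1-labelled arrays. In the vector arrays it went to 107 higher and 173 lower, beside 159 and 91, and INHBA, at 0.91, no longer passed 2-fold.

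Between DLC1-labelled and vector arrays, INHBB and GDF15 rose with TGF-beta and BMP2 alone fell, where 1.46% of all genes rose and 1.64% fell. Without TGF-beta the same pair of genes rose and 0 of 10 members fell, where 1.63% rose and 2.34% fell. In both states, 0.868% of all genes rose, INHBB and GDF15 among them, and 1.13% fell, with 0 members among those. The other 7 members stayed within 2-fold with TGF-beta and the other 8 without it. The members' median differences were -0.16 with TGF-beta and -0.03 without it, beside -0.02 and -0.03 over all genes. INHBB ranked 12 from the highest with TGF-beta and 18 without it.

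**Figure D3:**
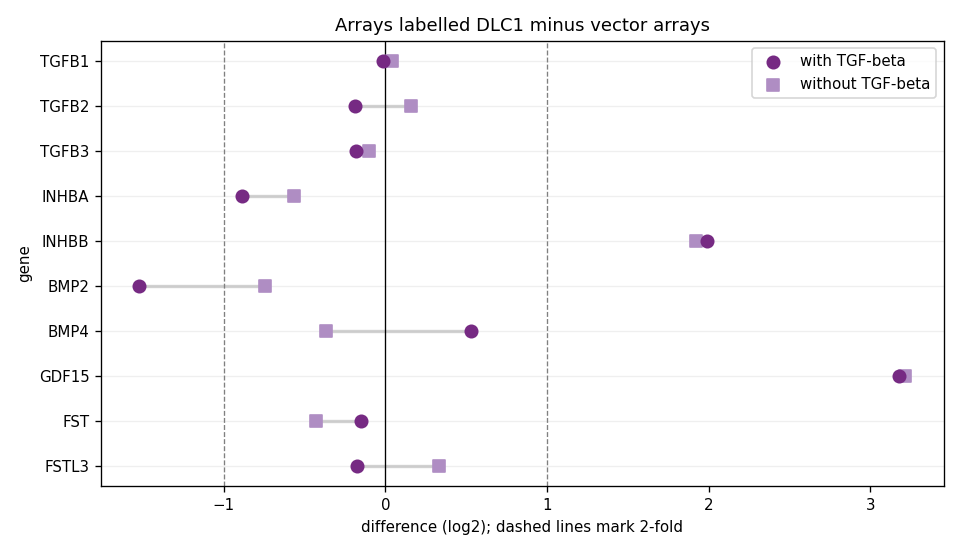
Difference of the DLC1-labelled arrays minus the vector arrays, on the log2 scale, for each gene: circles are the arrays with TGF-beta and squares those without it, and dashed lines mark 2-fold. GDF15 and INHBB lie to the right in both states, at 3.18 and 1.99 with TGF-beta, and BMP2 passes 2-fold to the left with TGF-beta only, at -1.52 against -0.74.

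**Figure D4:**
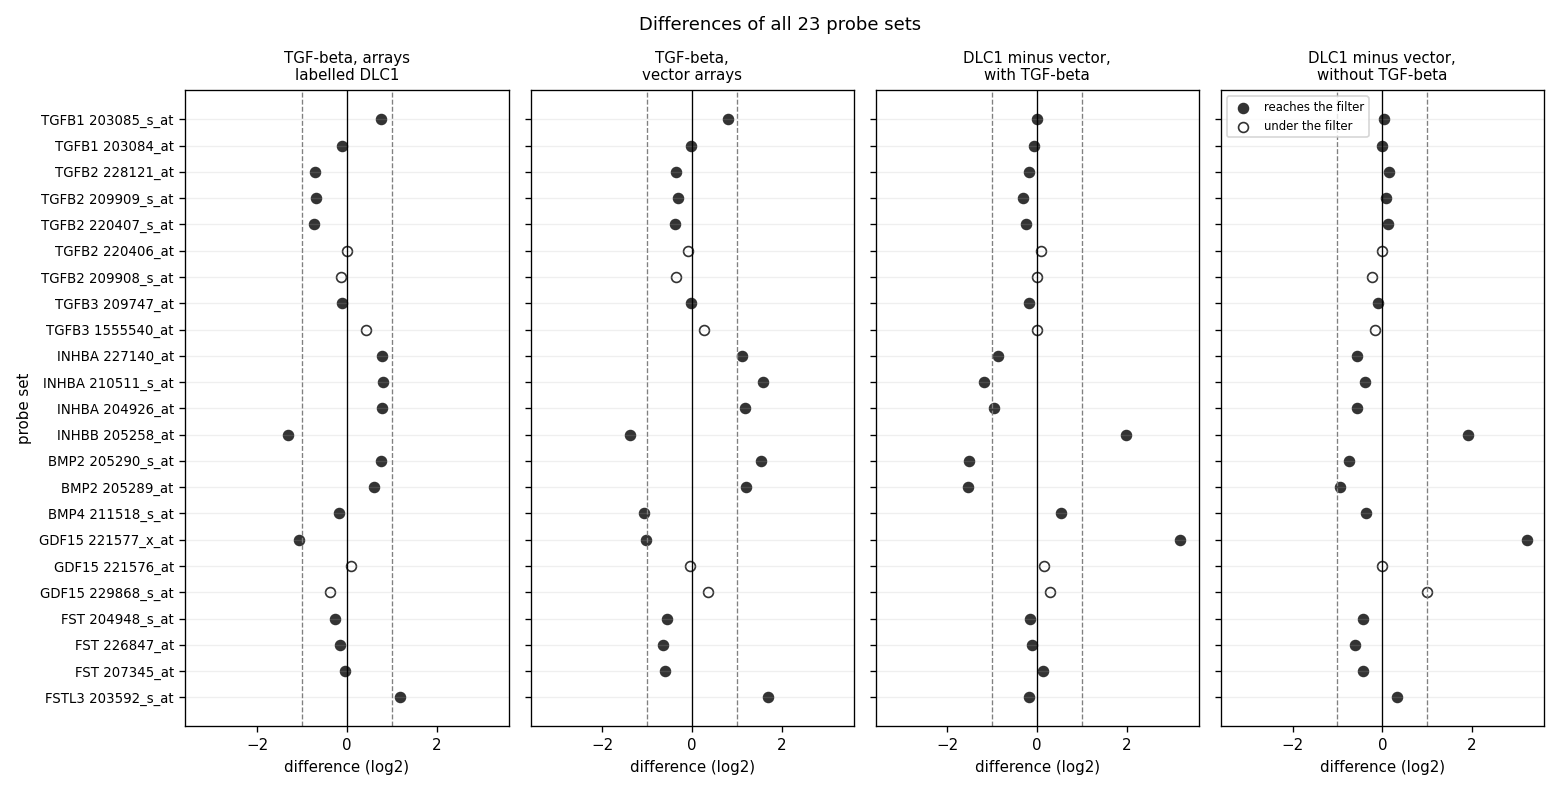
Differences of all 23 probe sets on the log2 scale in the 4 comparisons, by gene and in order of brightness. Filled points are the 18 sets that reach the filter and open points the 5 that do not, and the sets of INHBA, BMP2 and FST lie close together, whereas those of TGFB1 and GDF15 part.

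The interaction subtracts the TGF-beta difference of the vector arrays from that of the DLC1-labelled arrays and so uses all 4 arrays. No member reached 2-fold, nor did more than 0.19% of all genes upward and 0.175% downward. BMP4 came nearest upward, at 0.90 and rank 43 from the highest, and BMP2 nearest downward, at -0.78 and rank 59 from the lowest. FSTL3 gave -0.51 and INHBA -0.32. INHBB and GDF15 gave 0.07 and -0.04, so the TGF-beta difference of each was of like size in both kinds of cells. Of 8 members that differed by at least 0.5 with TGF-beta in vector arrays, 7 differed less, and in the same direction, in the DLC1-labelled arrays. That share of 87.5% stands near the 80.0% of all 1106 genes of that size, 885 of which did so. GDF15 was the exception, at -1.07 against -1.03. TGFB2, under 0.5 in the vector arrays, also had the bigger difference in the DLC1-labelled arrays, at -0.71 against -0.37. Picking genes on the size of their vector difference by itself favours a smaller one in the other arrays. The reverse choice was not made, so these shares do not show a weaker response.

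**Figure D5:**
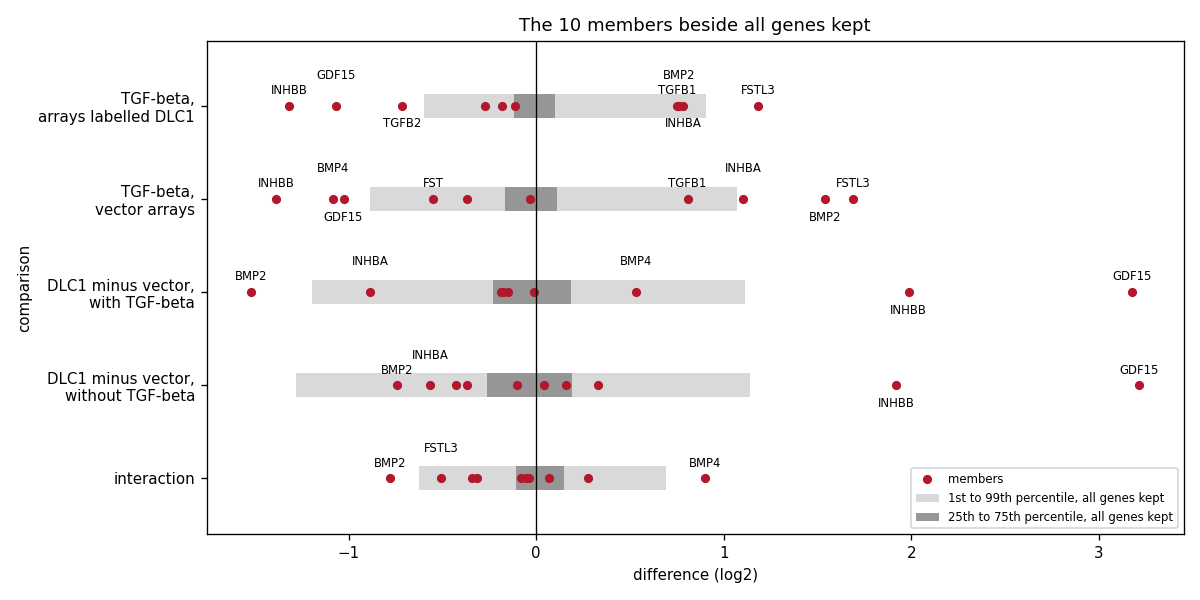
Differences of the 10 members, as points, on the log2 scale in each comparison, beside all 13136 genes kept, whose 1st to 99th percentile is the light bar and 25th to 75th percentile the dark bar. In the vector arrays with TGF-beta, 3 members lie above and 3 below the light bar, and GDF15 and INHBB lie right of it in both DLC1 comparisons. The members were chosen with earlier results of these data known.

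Genes with the most similar profile were sought for the 3 members that changed in the same direction in both states or both kinds of cells. Likeness was the distance between log2 values centred over the 4 arrays, among 13135 other genes. AGR2, at a distance of 0.66, LCN2 at 0.91 and ALDH8A1 at 1.17 came nearest to GDF15. With TGF-beta AGR2 gave -0.69 and -0.75 in the DLC1-labelled arrays and vector arrays, and LCN2 -0.39 and -0.20. ALDH8A1 gave -0.05 and 0, so none of them fell 2-fold there as GDF15 did. SMIM31 at 0.38, SHOC1 at 0.40 and PCDH7 at 0.57 came nearest to INHBB. SMIM31 read 1.20 with TGF-beta and 2.68 without it in the DLC1-labelled arrays, and 0.36 and 0.98 in the vector arrays. VMP1 at 0.23, the collagen gene COL5A1 at 0.27 and the fibronectin gene FN1 at 0.33 came nearest to FSTL3. FN1 read 60.84 and 32.81 in the DLC1-labelled arrays with and without TGF-beta, and 62.15 and 23.90 in the vector arrays. With only 4 points to a profile, a small distance says little about shared control.

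The rest of the pathway gives the setting, from lists of its other genes, drawn up with earlier results of these data known. In each comparison at most 2.34% of all genes passed 2-fold in any 1 direction, so none passing in a short list says little. Of 25 further ligands, 21 have a probe set with that symbol alone and 9 were kept. None of the 9 passed 2-fold with TGF-beta in either kind of cell. INHBE, an inhibin subunit gene, differed by 1.32 between DLC1-labelled and vector arrays with TGF-beta and by 0.92 without it. Its readings were dim, at 0.40 and 0.36 against 0.16 and 0.19. It reaches the filter only through the DLC1-labelled array with TGF-beta, where it is highest, so it is not counted as a rise. Of 20 further antagonists 8 were kept, and none passed 2-fold in any comparison. NOG, the gene of the BMP antagonist noggin, gave 0.58 and 0.43 with TGF-beta in the DLC1-labelled arrays and vector arrays, and FSTL1 0.47 and 0.74. Among 5 kept proteases that process ligands none passed 2-fold either. FURIN, which cleaves many of these precursors, gave 0.96 in the DLC1-labelled arrays and 0.44 in the vector arrays.

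Of 14 kept receptors, TGFBR3, the co-receptor betaglycan, which presents TGFB2 to its receptors and binds inhibins, gave -0.72 with TGF-beta in the DLC1-labelled arrays and fell by 1.41 in vector. Its other set gave -0.77 and -1.53. The BMP receptor gene BMPR1B fell by 1.11 in the DLC1-labelled array with TGF-beta, and BMPR2 gave 0.67 and 0.96 with TGF-beta in the DLC1-labelled arrays and vector arrays. Of 7 kept SMAD genes the inhibitory SMAD7 alone rose with TGF-beta, by 2.10 in the DLC1-labelled arrays and 2.30 in the vector arrays. SMAD3 gave -0.49 and -0.84.

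Targets of TGF-beta and activin moved with the treatment: 7 of 9 kept rose in the DLC1-labelled arrays and 8 in the vector arrays, with medians of 1.42 and 1.85. Of all genes kept, 0.792% and 1.21% rose there. The targets were listed with earlier results of these data known, so the counts are description only. SMAD7 is in this list too. BHLHE40 alone of the list passed 2-fold in the interaction, at -1.06, and its other probe set gave -0.20. PMEPA1, a feedback inhibitor, read 80.96 with TGF-beta and 6.63 without it in the DLC1-labelled arrays, and 89.76 and 8.19 in the vector arrays. None of the 9 differed 2-fold between DLC1-labelled and vector arrays in either state. Of all genes, only 1.46% rose and 1.64% fell there with TGF-beta, and 1.63% and 2.34% without it, so this says little. Their medians there were -0.43 with TGF-beta and -0.28 without it. None of 4 kept BMP targets passed 2-fold with TGF-beta. Of all genes, 0.792% rose and 0.107% fell with it in the DLC1-labelled arrays, and 1.21% and 0.693% in the vector arrays. That none of so few passed therefore says little. ID1, an inhibitor of differentiation factors, fell in the DLC1-labelled arrays by 1.30 with TGF-beta and 1.41 without it, to 1.07 and 0.86 against 2.63 and 2.28 in vector. ID4 gave 0.46 and 0.66. Another ID4 set gave 0.87 and 1.75, from dim readings of 0.17 to 0.57. It reaches the filter only in the DLC1-labelled arrays, so the filter favoured this direction. A further ID4 set gave -0.13 and 0.41.

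Beside GDF15 stand genes known to regulate it or to share its regulators. Of 7 kept, TRIB3, a pseudokinase of the ATF4 stress response, and DDIT3, the stress factor CHOP, rose by 1.76 and 1.03 in the DLC1-labelled array with TGF-beta. Without TGF-beta TRIB3 rose by 2.06 and DDIT3 differed by 0.86. The list's medians were 0.47 with TGF-beta and 0.63 without it, beside -0.02 and -0.03 over all genes. EGR1 ran the other way, at -0.82 and -0.95. With TGF-beta, where GDF15 fell, TRIB3 gave -0.04 and 0.26 in the DLC1-labelled arrays and vector arrays. CDKN1A, the cell cycle inhibitor p21, rose by 1.01 and 1.17. The part of these genes in the GDF15 difference was not tested. Housekeeping genes, 10 of which were kept, had medians of -0.02 and 0.04 with TGF-beta and of -0.06 and -0.01 for DLC1-labelled against vector arrays, with and without TGF-beta, and none passed 2-fold.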

How the data were processed

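One array was analysed for each of the 4 groups, grouped by their labels. The intensities deposited by the authors are linear-scale values of 54675 probe sets, given to 2 decimals, from 0.05 to 265.58. Per the submitters' processing notes the method was RMA, with no version or settings given. It usually gives log2 values, whereas this range is linear, so log2 was taken here. The divisor of the scale is not given in the sources used here. Because the arrays share nearly 1 distribution, a change common to most genes would not be seen, and rounding makes ratios of dim values coarse.

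The platform's annotation table gave probe sets their gene symbols, and all 23 gene IDs of the members match current symbols. A gene was its brightest probe set with 1 symbol, kept if the highest value reached 0.38, and called changed at 2-fold or more, over all 13136 genes kept. The calling rule was run on simulated data with set effects well past 2-fold and an assumed noise. With 1 array a group the real noise is unknown, so that run cannot show how far differences near 2-fold can be trusted. The members and gene lists were chosen with earlier results of these data known. Named genes are the members with all probe sets, DLC1, up to 4 genes of a list per comparison with the biggest differences, and the 3 nearest profiles. Alternatives were 2 other choices of probe set, a pseudocount, 2 filters, 3 scalings and 1.5-fold. Python 3.11.15, numpy 2.4.6, pandas 2.3.3 and limma 3.58.1 in R 4.3.3 were used.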

Additional observations from a re-analysis of the deposited data

Results flagged for a closer look

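For 3 members the DLC1-labelled arrays differed from the vector arrays in opposite directions with and without TGF-beta, by at least 0.1 on the log2 scale in each. BMP4 gave 0.53 with TGF-beta and -0.37 without it. FSTL3 gave -0.18 with TGF-beta and 0.33 without it. TGFB2 gave -0.19 with TGF-beta and 0.16 without it. None of these values reached 2-fold, each rests on 2 arrays, and the difference between the states was not tested.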

How the results depend on the processing

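No replicate exists, so leaving one out and a paired analysis were not possible. Of 425 differences of single members recomputed under the alternatives, 0 of those past 2-fold changed sign. In all, 10 crossed 2-fold or moved by more than 1.5-fold. The 2 filters and the 1.5-fold setting leave each value as it is. A gene with 1 probe set cannot move with the choice of set. The mean of all sets moved 5 of 45, the second set 3 of 40, and the pseudocount and housekeeping centring 1 of 50 each. Quantile normalization and cyclic loess moved 0 of 50 each. GDF15 depends on its probe set: with the mean of all sets its values were 1.20 and 1.41 for DLC1-labelled against vector arrays (the DLC1 label below) with and without TGF-beta, and -0.45 and -0.24 for TGF-beta in the DLC1-labelled arrays and vector arrays. With a pseudocount of 0.1 the last was -0.94. Its second set lies under the filter. TGFB1's second set gave -0.10 and -0.03 with TGF-beta, and TGFB3 is lost with either other choice of set or the stricter filter. TGFB1 is lost with the stricter filter.

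The mean of all sets left 1 member lower with TGF-beta in the DLC1-labelled arrays and gave 2 lower for the DLC1 label with TGF-beta, INHBA at -1.01 being added. Over all genes it gave 8 and 54 lower with TGF-beta (DLC1-labelled arrays, vector), 168 lower for the DLC1 label without TGF-beta, and 15 higher and 15 lower in the interaction. The second set gave 1 member lower with TGF-beta in the DLC1-labelled arrays, and 1 higher and 2 lower for the DLC1 label with TGF-beta and 1 higher without it. Those are changes from 2, 2, 1 and 2. At 1.5-fold, 4 members rose with TGF-beta in the DLC1-labelled arrays, 2 and 1 were lower for the DLC1 label with and without TGF-beta, and 1 was higher and 1 lower in the interaction. All genes at 1.5-fold were 304 higher and 139 lower with TGF-beta in the DLC1-labelled arrays, and 413 and 382 in the vector arrays. For DLC1 they were 777 and 881 with TGF-beta and 767 and 1168 without it, and 235 and 169 in the interaction. The stricter filter, which tests 8391 genes, gave 9 and 58 lower with TGF-beta, 118 higher and 141 lower for the DLC1 label with TGF-beta, and 7 higher and 14 lower in the interaction. The pseudocount gave 16 and 14 in the interaction. Beside these, the main counts over all genes were 14 and 91 lower with TGF-beta, 192 and 216 for the DLC1 label with TGF-beta, 214 and 307 without it, and 25 and 23 in the interaction. Housekeeping centring gave 69 higher and 34 lower with TGF-beta in the DLC1-labelled arrays and 173 lower in the vector arrays. The cause was not tested where fewer genes or another set do not give it.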

Other observations

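Changes of 1 member relative to another, each the difference of their log2 differences, show how far members of a pair parted on the same arrays. INHBA relative to INHBB shifted by 2.10 with TGF-beta in the DLC1-labelled arrays and by 2.49 in the vector arrays, and by -2.87 and -2.48 for DLC1-labelled against vector arrays with and without TGF-beta. BMP2 relative to BMP4 shifted by 0.95 with TGF-beta in the DLC1-labelled arrays and by 2.62 in the vector arrays. INHBA relative to FST shifted by 1.06 and 1.65 with TGF-beta, whereas INHBA relative to FSTL3 shifted by -0.40 and -0.59. GDF15 and INHBB, the members that rose in the DLC1-labelled arrays, parted by 1.19 and 1.30 in that comparison, with and without TGF-beta. These pairs were chosen by family relation after their values were known, and the shifts show unequal change, not which member moved.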
